A study of Mus musculus with 4 samples.

Results

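The elastic fibre and microfibril genes are a group of 10 genes, taken by symbol from the deposited table of 56980 genes: Eln, Fbn1, Fbn2, Fbln1, Fbln2, Fbln5, Efemp1, Efemp2, Mfap2 and Mfap5. All 10 were found in the table, each once. They were measured in mesenchymal stromal cells (MSCs) of the bone marrow of 4 wild-type male C57BL/6J mice from an in-house inbred colony, aged 14 weeks. From each mouse, 100 cells that carried CD51 and PDGFRa and lacked CD45, Ter119, CD31 and Sca1 were sorted, and 1 RNA-seq library was made from their polyA RNA. The 4 libraries form a single group with no treated or mutant counterpart, so that levels were compared between genes and between mice. In libraries of whole cell pools, fewer cells of a type and less RNA per cell cannot be told apart.

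Elastic fibres let skin, lung and arteries recoil. A fibre has a core of crosslinked elastin and a mantle of microfibrils, which are strings of the large glycoproteins fibrillin-1 and fibrillin-2 (Fbn1, Fbn2). Small microfibril-associated glycoproteins (Mfap2, Mfap5) bind the fibrillins. The fibulins bridge the parts: fibulin-5 (Fbln5) and fibulin-4 (Efemp2) bring elastin and the crosslinking enzymes onto microfibrils. Fibulin-1, fibulin-2 and fibulin-3 (Fbln1, Fbln2, Efemp1) bind matrix proteins more widely. Microfibrils also exist without elastin, and they hold latent TGF-beta and BMPs in the matrix, in bone among other tissues.

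The MSC libraries carried transcripts of microfibrils and fibulins without detectable elastin. Levels were computed from the deposited counts as TPM, which corrects for gene length and sums to 1000000 in each library. A median over the 4 mice above 1 TPM was the cutoff for expression. This cutoff was passed by 7 of the 10 genes, against 22.9% of the 52125 genes with a length and 44.2% of the protein-coding genes. In every mouse, 6 of the 10 were above 1 TPM, against 15.4% of all genes and 30.1% of the protein-coding genes. The 3 genes under the cutoff were Eln, Fbln2 and Mfap5. Of these, Eln and Mfap5 had at most 3 counts in every library, as had 61.8% of all genes and 38.1% of the protein-coding genes. The other 7 spanned a wide range, from a median of 305 TPM for Mfap2 to 6.36 TPM for Fbn2.

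**Figure D1:**
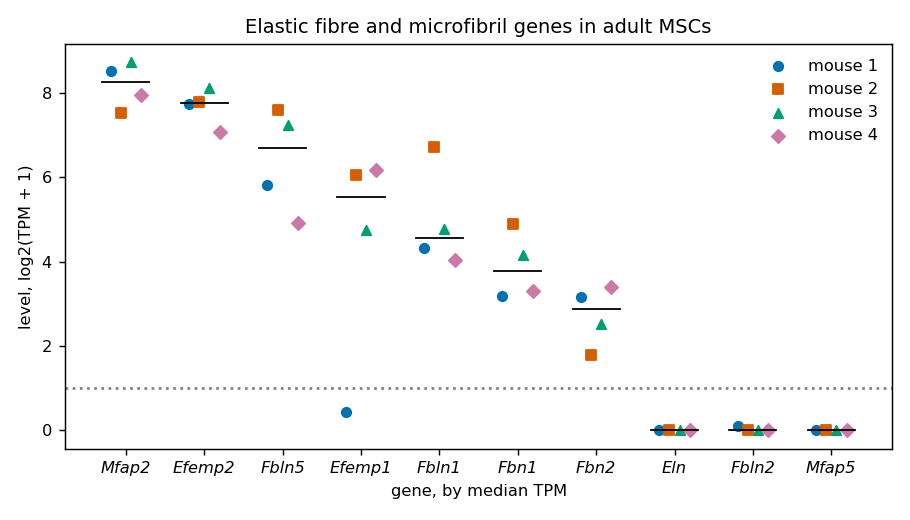
Level of each of the 10 genes in each of the 4 mice, on a scale of log2(TPM + 1), with genes ordered by median TPM from left to right. Points are single libraries, black lines are medians and the dotted line marks 1 TPM. Eln, Fbln2 and Mfap5 lie at the bottom in every mouse, and Efemp1 falls below the line in mouse 1 only.

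The counts behind these levels were 22738604 to 43545349 per library, and 96.1% to 98.2% of them fell on genes with a length. Mouse 2 had the fewest genes above 0 counts, 16109, while the others had 18683 to 18907. The genes of the antigens used to select the cells were present in every library, Pdgfra with 39.8 ± 7.29 TPM and Itgav, which encodes CD51, with 15.7 ± 2.51 TPM (mean ± SD, n = 4). Among the antigens sorted against, Ptprc and Pecam1 were below 0.27 TPM in every mouse. Ly6a of the Sca1 locus had 120 and 144 counts in mice 2 and 4 and at most 1 in mice 1 and 3. Genes of osteoblasts were high beside those of niche stroma. Leaving out Bglap, which was far higher, Ibsp, Sp7 and Alpl together reached 11294 to 22124 TPM, where Cxcl12, Lepr, Kitl, Foxc1 and Ebf3 together reached 1048 to 4633 TPM.

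Elastin, the rubber-like core protein, was not detectable at this depth. Eln (ENSMUSG00000029675, chr5:134702593-134747323 in GRCm38, minus strand) had 1, 0, 1 and 1 counts in mice 1 to 4. These 3 counts in all, among 135081233, have an exact Poisson 95% interval from 0.619 to 8.77 counts, which covers counting error only. A floor of 3 counts corresponds to 0.0211 to 0.0359 TPM for Eln in the 4 libraries. Every mouse lay below its floor.

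Fibrillin-1, the main microfibril scaffold of adult tissues, was present in every mouse. Fbn1 (ENSMUSG00000027204, chr2:125300594-125507993, minus strand) had 1739, 3882, 3517 and 1109 counts in mice 1 to 4, or 8.15, 28.8, 16.8 and 8.85 TPM. Mouse 2 was highest, at 3.53 times the level of mouse 1. The mean was 15.6 ± 9.59 TPM (SD, n = 4). Fibrillin-2, best known from embryonic microfibrils, was also found in every adult library. Fbn2 (ENSMUSG00000024598, chr18:58008623-58210487, minus strand) had 1857, 357, 1080 and 1305 counts, or 7.99, 2.43, 4.73 and 9.56 TPM, with a mean of 6.18 ± 3.21 TPM (SD, n = 4). Mouse 2, where Fbn1 was highest, had the lowest Fbn2, and mouse 4 had the highest. Fbn1 made up 50.5%, 92.2%, 78.0% and 48.1% of the summed fibrillin TPM in mice 1 to 4. The fibrillins were close in mice 1 and 4, with ratios of Fbn1 to Fbn2 of 1.02 and 0.926, and far apart in mouse 2, with a ratio of 11.8.

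Mfap2, which encodes the microfibril-associated glycoprotein MAGP-1, had the highest mean and median TPM of the group. Mfap2 (ENSMUSG00000060572, chr4:141010418-141015984, plus strand) was counted 7732, 2461, 8808 and 3084 times in mice 1 to 4, or 363, 183, 421 and 246 TPM. The mean was 303 ± 108 TPM (SD, n = 4). Its median TPM was rank 353 of all genes with a length, above 99.3% of them. Mouse 2 was lowest and mouse 3 highest, 2.30 times apart. Per length, Mfap2 exceeded the summed fibrillins 22.5, 5.86, 19.6 and 13.4 times in mice 1 to 4. Its paralogue Mfap5, which encodes MAGP-2 (ENSMUSG00000030116, chr6:122505845-122529290, plus strand), had 0 counts in all 4 libraries, where 3 counts correspond to 0.0475 to 0.0809 TPM. Against that floor, taken per library, Mfap2 was at least 2431-fold higher than Mfap5 in each mouse. The floor reflects read depth only and leaves out any RNA lost in making the library.

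Of the fibulins that assemble elastic fibres, fibulin-4 was the steadiest gene of the group. Efemp2 (ENSMUSG00000024909, chr19:5473954-5482517, plus strand) was counted 14095, 9299, 18051 and 5245 times in mice 1 to 4, or 212, 221, 276 and 134 TPM, with a mean of 210.5 ± 58.4 TPM (SD, n = 4). Mouse 3 was highest and mouse 4 lowest, 2.06 times apart. Fibulin-5, which links elastin and microfibrils to integrins, was expressed in every mouse and varied more. Fbln5 (ENSMUSG00000021186, chr12:101746565-101819055, minus strand) had 6713, 14692, 17778 and 2086 counts, or 55.2, 191, 149 and 29.2 TPM, with a mean of 106 ± 76.5 TPM (SD, n = 4). Mice 2 and 3 were high and mice 1 and 4 low, with 6.54 times between the extremes. Fibulin-3, a glycoprotein of the same short fibulin type, was below the cutoff in a single mouse. Efemp1 (ENSMUSG00000020467, chr11:28853204-28926743, plus strand) had 13, 1473, 905 and 1498 counts, or 0.363, 65.0, 25.7 and 71.2 TPM, with a mean of 40.6 ± 33.5 TPM (SD, n = 4). Mouse 1 lay 196 times below mouse 4.

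Among the fibulins that bind matrix more widely, fibulin-1 was present and fibulin-2 close to absent. Fbln1 (ENSMUSG00000006369, chr15:85205949-85286535, plus strand) was counted 1463, 5059, 1989 and 692 times in mice 1 to 4, or 19.0, 104, 26.4 and 15.3 TPM. Mouse 2 stood far above the others, which lay between 15.3 and 26.4 TPM. The mean of 41.2 ± 42.2 TPM (SD, n = 4) fell to 20.2 TPM without mouse 2. Fbln2 (ENSMUSG00000064080, chr6:91212455-91272540, plus strand) had 8 counts in mouse 1, or 0.0714 TPM, and 0 in the other mice, where 3 counts correspond to 0.0273 to 0.0456 TPM.

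The spread between mice was set beside that of all genes of like level. Mfap2, Efemp2 and Fbln5 had coefficients of variation of 35.7%, 27.7% and 72.1%, where the 911 genes whose mean lay from 100 to 1000 TPM had a median of 23.5% and an upper quartile of 36.3%. Fbn1, Efemp1 and Fbln1 had 61.3%, 82.6% and 102%, where the 4673 genes whose mean lay from 10 to 100 TPM had a median of 42.4% and an upper quartile of 65.1%. Fbn2 had 51.9%, below the median of 89.6% for the 8584 genes of 1 to 10 TPM. Fbln5, Fbln1 and Efemp1 were thus above the upper quartile of genes at their level, and Mfap2, Efemp2, Fbn1 and Fbn2 were not.

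Ordered by median TPM, the genes were Mfap2, Efemp2, Fbln5, Efemp1, Fbln1, Fbn1 and Fbn2, followed by Eln, Fbln2 and Mfap5, whose order cannot be read from so few counts. Only some neighbours in this order differed by more than the SD of their difference within mice. In log2(TPM + 1), Efemp2 lay above Fbln5 by 1.29 ± 0.91 and Fbln1 above Fbn1 by 1.08 ± 0.54 (SD, n = 4), each in 4 of 4 mice. Fbn2 lay above Eln by 2.71 ± 0.72 in 4 of 4 mice. Mfap2 and Efemp2 differed by 0.50 ± 0.52, with Mfap2 higher in 3 of 4 mice. Fbln5 and Efemp1 differed by 2.03 ± 2.73, and Efemp1 and Fbln1 by -0.61 ± 2.49, both within their spread. The negative sign arises because Efemp1 had the higher median and the lower mean on the log scale, with mouse 1 far below the rest.

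Together the 10 genes reached 665, 795, 919 and 515 TPM in mice 1 to 4. In each mouse Mfap2 and Efemp2 were the leading genes except in mouse 2, where Fbln5 came between them. Efemp2 held the most even share, 28.9 ± 2.52% of the summed TPM (mean ± SD, n = 4), with 26.0% to 31.8% in single mice. Mfap2 took 54.5%, 23.0%, 45.8% and 47.9% in mice 1 to 4, so that its share in mouse 2 was less than that in any other mouse. The share of Fbln5 was largest in mouse 2, with 8.30%, 24.0%, 16.2% and 5.68% in mice 1 to 4. Fbln1 took 13.1% in mouse 2 and 2.86% to 2.98% in the others. By TPM, which divides by length, the fibrillins were a small part, with Fbn1 at 1.22% to 3.62% and Fbn2 at 0.305% to 1.86%.

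**Figure D2:**
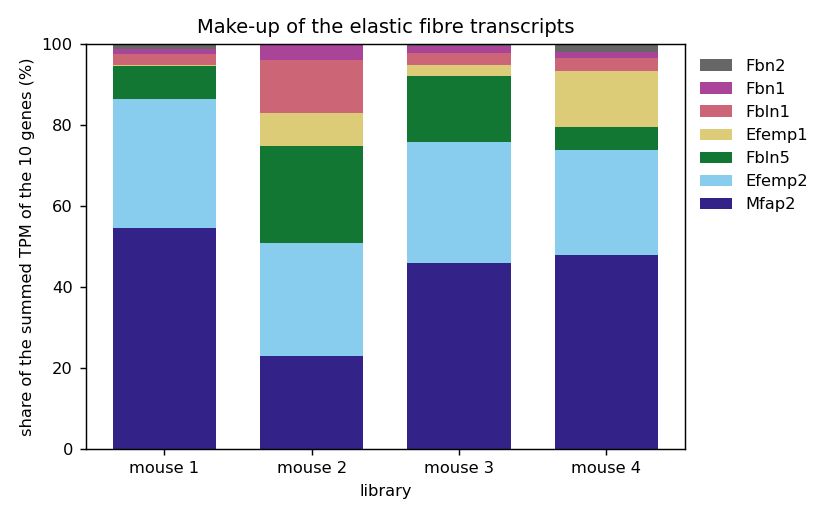
Share of each gene in the summed TPM of the 10 genes, in percent, with 1 bar per mouse. Eln, Fbln2 and Mfap5 are too low to be seen. Mfap2 and Efemp2 form the base of each bar, and mouse 2 has a smaller share of Mfap2 and larger shares of Fbln5 and Fbln1 than the other mice.

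Close relatives and partners were compared within each mouse in 6 pairs, by the difference in log2(TPM + 1). The signs of the 4 differences were flipped in every way (exact permutation, two-sided), and p-values were adjusted over the 6 pairs by the Benjamini-Hochberg method. With 4 mice, the smallest p this test allows is 0.125, so that no pair could pass 0.05. Mfap2 lay above Mfap5 by 8.18 ± 0.54 (SD, n = 4), and Fbln1 above Fbln2 by 4.94 ± 1.23, each in 4 of 4 mice (exact permutation p = 0.125, adjusted p = 0.15 for both). Fbn1 lay above Eln by 3.88 ± 0.80 in 4 of 4 mice (exact permutation p = 0.125, adjusted p = 0.15). The size of these 3 differences depends on the pseudocount, since Mfap5, Fbln2 and Eln were at or near 0. With a pseudocount of 0.1 they were 11.49, 8.04 and 7.02. Among the short fibulins, Efemp2 was higher than Efemp1 by 3.33 ± 2.83 and Fbln5 was lower than Efemp2 by 1.29 ± 0.91, each in 4 of 4 mice (exact permutation p = 0.125, adjusted p = 0.15 for both). The first of these fell to 2.01 without mouse 1. In the pair of fibrillins, Fbn1 was higher in 3 of 4 mice, by 1.17 ± 1.52, which is less than the spread between mice (exact permutation p = 0.375, adjusted p = 0.375), and by 0.52 without mouse 2. The direction in mice 1 and 4 turned with the length used: Fbn1 was higher in 2 of 4 mice with the longest transcript as length and in 4 of 4 with shared exonic bases left out.

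**Figure D3:**
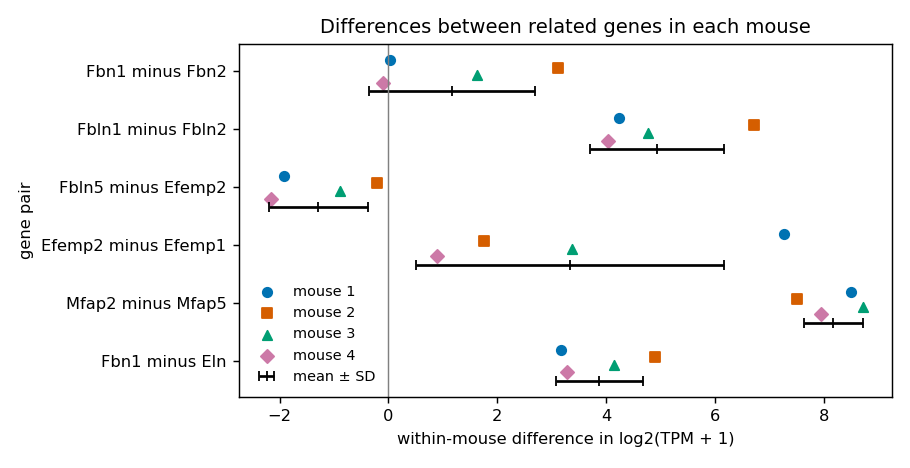
Within-mouse difference in log2(TPM + 1) for the 6 pairs, with 1 point per mouse and the mean ± SD of the 4 mice drawn below the points. In 5 pairs all mice lie on one side of 0, and in the pair of Fbn1 and Fbn2 mice 1 and 4 lie at 0.03 and -0.10.

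Between mice, the expressed genes did not move as one block. Fbn1, Fbln1 and Fbln5 were each highest in mouse 2 and next in mouse 3, while Fbn2 and Mfap2 were each lowest in mouse 2. Efemp2 was highest in mouse 3, and Efemp1 in mouse 4. The order of the mice for each of these 7 genes was the same when libraries were scaled by TMM factors, by median-of-ratios size factors, by a common upper quartile or by total counts alone. Mouse 2 also carried the highest summed level of the niche stroma genes, with 1048, 4633, 2369 and 1231 TPM in mice 1 to 4. Most of this sum is Cxcl12, with 983, 4329, 2224 and 1079 TPM. Each of the 5 niche genes was highest in mouse 2 and lowest in mouse 1, while in the middle Cxcl12 and Kitl had mouse 3 above mouse 4, as had Fbn1, and Lepr, Foxc1 and Ebf3 had mouse 4 above mouse 3. The 4 osteoblast genes did not share an order. Sp7 and Alpl were high in mice 1 and 3, with 339 and 255 TPM for Sp7 and 892 and 963 TPM for Alpl, as was Mfap2. In mice 2 and 4, Sp7 had 158 and 151 TPM and Alpl 550 and 573 TPM. Bglap, which encodes osteocalcin, was instead lowest in mouse 3, with 96604, 119827, 55668 and 156730 TPM in mice 1 to 4, and Ibsp had 11147, 13101, 20907 and 10570 TPM, with mouse 2 above mouse 1. Erythroid genes summed to 3821, 21.1, 1336 and 277 TPM. Mice 1 and 3, where Sp7, Alpl and Mfap2 were high, had the deeper libraries, with 43545349 and 42747050 counts. Mice 2 and 4 had 26050230 and 22738604 counts. The part of these markers, or of depth, in the levels of the group was not tested.

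**Figure D4:**
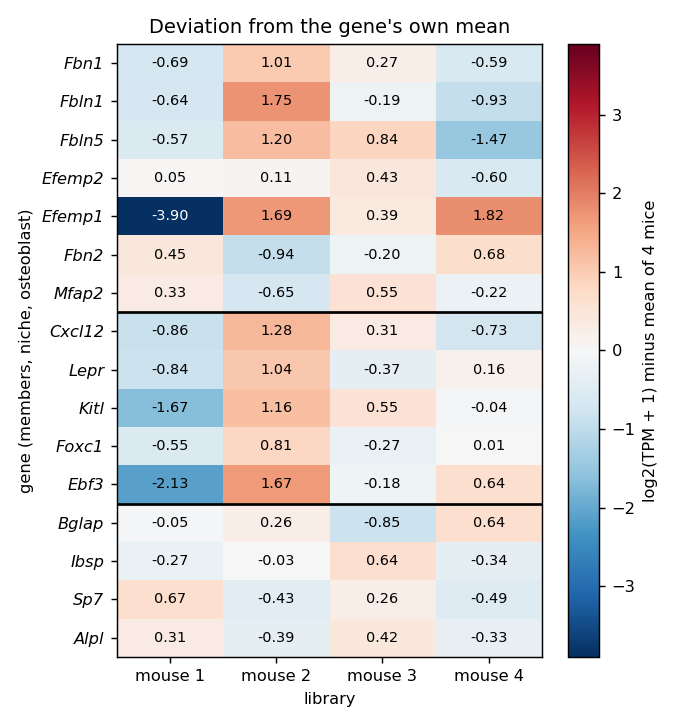
Deviation of each gene from its own mean over the 4 mice, in log2(TPM + 1), for the 7 expressed genes of the group (top), 5 genes of niche stroma (middle) and 4 genes of osteoblasts (bottom). Red is above and blue below the mean. In mouse 2, Fbn1, Fbln1 and Fbln5 are up by 1.01, 1.75 and 1.20, and Fbn2 and Mfap2 are down at -0.94 and -0.65.

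For each of the 6 genes above 1 TPM in every mouse, the gene with the most similar deviations over the 4 mice was sought among 33 others, namely the expressed genes of the group and of a list of elastic fibre partners. Likeness was measured as the root mean square difference of the deviations in log2(TPM + 1), where 0 is an equal course, and it favours genes that vary little and, through the pseudocount of 1, narrows the course of genes near 1 TPM. Fbn1 was closest to Ltbp4, a latent TGF-beta binding protein that joins microfibrils, at 0.15. Fbln1 was also closest to Ltbp4, at 0.33, and Fbn2 to the lysyl oxidase Loxl2, at 0.28. Mfap2 was closest to Ctsk, the collagen- and elastin-degrading cathepsin K, at 0.18. Efemp2 was closest to Furin, a protease that matures profibrillin, at 0.16, and Fbln5 to Tgfb1 at 0.39. With a pseudocount of 0.1, tried after seeing the data, Loxl2, Ctsk and Furin were again the nearest of Fbn2, Mfap2 and Efemp2, at 0.32, 0.18 and 0.21. The other 3 changed: Fbn1 and Fbln1 were then closest to Loxl1, at 0.32 and 0.43, and Fbln5 to Adamts10 at 0.38. Ltbp4, whose TPM spanned 11.4 times over the mice against 3.53 times for Fbn1, then lay at 0.56 from Fbn1, and Tgfb1 took rank 14 of 33 for Fbln5. These are descriptions over 4 points.

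The promoters of genes that were high or low together between mice are shown for reference, as 250 bases before the RefSeq start in GRCm38.p6, each read 5′ to 3′ on the strand of its gene. Of the 10 genes, 7 have a RefSeq promoter in the table used. The genes were picked after their values were seen: Fbn1, Fbln1 and Fbln5, highest in mouse 2, and Mfap2, lowest there. Capitals mark matches on either strand to GGGCGG (the GC box, bound by SP1), CCAAT (the CCAAT box) and TATAA (the core of the TATA box). The windows are chr2:125506439-125506688 (minus strand), chr15:85205699-85205948 (plus strand), chr12:101819120-101819369 (minus strand) and chr4:141010174-141010423 (plus strand). The Fbn1 window lies inside the GENCODE span of Fbn1 given above, downstream of the outermost start at 125507993.
Fbn1: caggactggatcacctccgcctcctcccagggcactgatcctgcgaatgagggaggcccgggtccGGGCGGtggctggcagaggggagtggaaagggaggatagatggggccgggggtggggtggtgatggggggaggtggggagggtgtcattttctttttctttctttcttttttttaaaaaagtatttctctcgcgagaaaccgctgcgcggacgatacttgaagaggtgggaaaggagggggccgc
Fbln1: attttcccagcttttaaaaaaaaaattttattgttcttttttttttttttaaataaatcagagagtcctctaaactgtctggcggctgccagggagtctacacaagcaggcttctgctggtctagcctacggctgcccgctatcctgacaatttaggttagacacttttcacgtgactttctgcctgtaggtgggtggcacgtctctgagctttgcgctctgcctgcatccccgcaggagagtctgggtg
Fbln5: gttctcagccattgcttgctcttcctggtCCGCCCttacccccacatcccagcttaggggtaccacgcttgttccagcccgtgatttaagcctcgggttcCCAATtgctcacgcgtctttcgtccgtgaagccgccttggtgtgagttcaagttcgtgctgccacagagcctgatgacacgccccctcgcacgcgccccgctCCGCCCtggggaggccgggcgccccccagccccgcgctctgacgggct
Mfap2: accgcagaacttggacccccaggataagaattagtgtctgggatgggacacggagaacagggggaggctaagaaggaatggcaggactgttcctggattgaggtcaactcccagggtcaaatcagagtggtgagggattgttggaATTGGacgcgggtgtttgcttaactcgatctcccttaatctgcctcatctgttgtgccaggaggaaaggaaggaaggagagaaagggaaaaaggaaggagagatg

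The Fbn1 window holds 1 GC box and the Fbln5 window 2 GC boxes and 1 CCAAT box. The Mfap2 window holds 1 CCAAT box, and the Fbln1 window holds none of the 3 motifs. The number of CG dinucleotides was 13, 7, 21 and 5 in the windows of Fbn1, Fbln1, Fbln5 and Mfap2, where the median of 32851 promoter windows was 6. Of all those windows, 32.7% hold GGGCGG, 33.8% CCAAT and 22.8% TATAA. None of the 3 motifs was found in all 3 windows of the genes that were highest in mouse 2. The GC box of Fbn1 and Fbln5 was not particular to them. The windows of Efemp2, Efemp1 and Fbln2, not shown here, hold 2, 1 and 1 GC boxes, and none of these genes was highest in mouse 2. A match to these letters is a description only.

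The genes that act with elastic fibres were followed in a list of 44 partners. Of these, 27 had a median above 1 TPM, against 22.9% of all genes and 44.2% of the protein-coding genes. In every mouse, 22 were above 1 TPM, against 15.4% of all genes and 30.1% of the protein-coding genes. All 5 lysyl oxidases, the enzymes that crosslink elastin and collagen, were above 1 TPM in every mouse. Lox led with 497, 341, 362 and 358 TPM in mice 1 to 4, or 389.5 ± 72.5 TPM (mean ± SD, n = 4), and Loxl2 was lowest at 7.04 ± 4.26 TPM. Loxl1, the family member tied to elastic fibre upkeep, had 28.0, 168, 84.2 and 32.0 TPM, with mouse 2 highest as for Fbln5, its binding partner. All 4 latent TGF-beta binding proteins passed the cutoff, from a median of 17.5 TPM for Ltbp3 to 1.14 TPM for Ltbp4. Ltbp4, which works with fibulin-5, was above 1 TPM in mice 2 and 3 only, at 4.92 and 1.73 TPM.

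Of 16 other microfibril and fibre proteins, 5 passed the cutoff, or 31.2%. This share was above the 22.9% of all genes and below the 44.2% of the protein-coding genes. Emilin1, an elastin- and fibulin-binding glycoprotein, was the single one of 5 EMILIN and multimerin genes past the cutoff, with 61.9 ± 28.6 TPM (SD, n = 4). Of Mfap3, Mfap4, Fbln7 and Hmcn1, Mfap3 alone passed, with a median of 12.3 TPM, and Mfap4, an elastic fibre protein of lung and skin, had 0 counts in every mouse. Of 7 microfibril-binding ADAMTS and ADAMTSL genes, 3 passed, led by Adamts10 with a median of 9.21 TPM, and Adamtsl2 had 0 counts in every mouse.

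The 8 proteases on the elastin-degrading list differed widely. Mmp2, Ctsk, Ctsl and Mmp14 were above 1 TPM in every mouse, with 657 ± 185, 431 ± 148, 180 ± 32.8 and 58.3 ± 7.69 TPM (mean ± SD, n = 4). The macrophage elastase Mmp12 had 1 count in all, Ctss had none, and the neutrophil elastase gene Elane had 261 counts in mouse 1 and 0 in the others. Among 7 receptors for elastin, fibrillin or fibulin-5, the integrin subunits Itgb1, Itgb5, Itgav and Itgb3 and the beta-galactosidase gene Glb1 were above 1 TPM in every mouse. They ranged from a median of 175 TPM for Itgb1 to 7.02 TPM for Itgb3. Counts were per gene, so splice forms of Glb1 were not told apart. The integrin subunits Itga5 and Itga8, which pair with Itgb1, had medians of 0.324 and 0 TPM. Of the growth factors held by microfibrils, Tgfb3 was highest, with 26.0 ± 14.0 TPM (SD, n = 4), against medians of 1.07 TPM for Tgfb1 and 0.00776 TPM for Tgfb2.

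**Figure D5:**
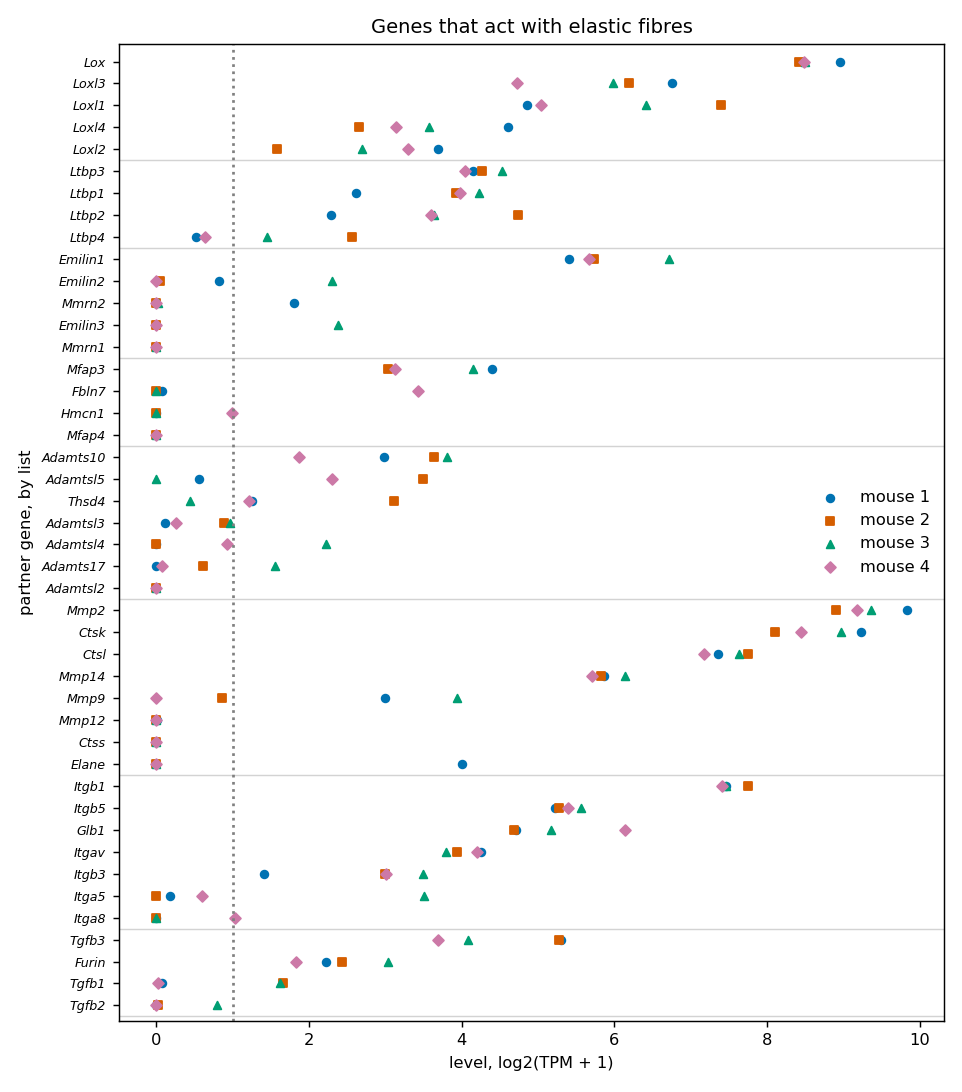
Level of each of the 44 partner genes in each mouse, on a scale of log2(TPM + 1). Grey lines part the 8 lists (lysyl oxidases, latent TGF-beta binding proteins, EMILINs and multimerins, further fibulins and microfibril proteins, ADAMTS and ADAMTSL genes, proteases, receptors, processing and growth factors), and the dotted line marks 1 TPM. Lox, Mmp2, Ctsk, Ctsl and Itgb1 lie to the right in all 4 mice, and many low genes are seen in 1 mouse only.

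Several partners were present in one mouse and missing from another, as were many genes of these libraries. Of the 37 partners with at least 100 counts in a mouse, 12 had at most 3 counts in another mouse. This share was close to, and not above, the 35.0% of all genes with such a count. Emilin3 had 257 counts in mouse 3 and 0 in the others, and Fbln7 325 counts in mouse 4 and at most 3 in the others. Of the elastic fibre and microfibril genes themselves, 7 had at least 100 counts in a mouse, and none of these 7 had 3 counts or fewer in another. Efemp1 came closest, with its 13 counts in mouse 1.

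Smooth muscle and adventitial fibroblasts, known for making elastin in arteries, left little trace in these libraries. The gate was set against cells with CD45, CD31 or Sca1, the antigen of Ly6a on the adventitial fibroblast list. Low endothelial and macrophage levels, and little trace of fibroblasts that carry Sca1, were therefore given by the gate. Ly6a still had 120 and 144 counts in mice 2 and 4, and at most 1 in mice 1 and 3. Whether any of these cell types bears on Eln was not tested. Of 5 smooth muscle genes, Acta2 and Cnn1 had 0 counts in every mouse, Tagln had at most 2, and the 5 together had 0, 1.58, 3.87 and 1.17 TPM in mice 1 to 4. Of 5 genes of adventitial fibroblasts, Pi16, Dpp4 and Clec3b had at most 2 counts in every mouse, and the list summed to 0.0562 to 11.7 TPM, nearly all from Ly6a and, in mouse 3, Cd34. Endothelial genes summed to at most 0.235 TPM and macrophage genes to at most 6.63 TPM, with Cdh5, Kdr, Adgre1, Csf1r and C1qa at 0 counts in every library. Genes of tendon and periosteum summed to 85.9, 54.4, 157 and 76.6 TPM, led by Postn. Of these 4 genes, only Postn was above 1 TPM in every mouse. Tnmd had 0 counts in mice 1 and 2, Scx had 6 counts in mouse 2, and Mkx had 0.31 and 0.52 TPM in mice 1 and 4. Adipocyte genes summed to 199 to 962 TPM, highest in mouse 2, mostly from Adipoq and Lpl. Cebpa had 7 counts in mouse 1, and Pparg had 8, 869, 50 and 0 counts in mice 1 to 4. Chondrocyte genes summed to 219 to 352 TPM, nearly all Col11a2.

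Most of the group could be counted without sharing reads. Fbn1 shares 20.1% of its exonic bases with Gm9913 on the opposite strand, which had 36 counts in mouse 3 and 0 in the others. Reads of both strands cannot be told apart where counting ignores strand. With those bases left out of its length, the mean of Fbn1 was 19.6 TPM. Efemp2 shares 4.57% with Mus81 on the opposite strand, a DNA repair gene with 749 and 510 counts in mice 1 and 3 and 0 in mice 2 and 4. Eln shares 3.30% with Gm30003 and Fbn2 0.976% with Gm26507, also antisense. No stretch of at least 100 bases with 95% identity or more was found in further genes for any of the 10.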

How the data were processed

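RNA was profiled in MSC pools from 4 mice. The authors deposited raw counts of uniquely mapped read pairs per gene, without normalization. Per the labels and the methods of the study, reads were demultiplexed with bcl2fastq 2.20.0, aligned to GRCm39 with STAR 2.7.10 and counted on exons with featureCounts (Subread 1.6.5). No strand option is stated, and replicates were not pooled. Each column was assigned to a mouse through its sample code, which the labels hold. Those methods also list a segemehl pipeline for these cells, which the labels do not name.

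Counts were divided by the exon union of GENCODE M21 (GRCm38, not the build of the counts) and scaled to 1000000 per library. Of 56980 genes, 52125 had a length and 4855 were left out. Depth was 22738604 to 43545349 counts. Differences use log2(TPM + 1). Code was tested on simulated data. Python 3.11.15, numpy 2.4.6, pandas 2.3.3, edgeR 4.0.16 for TMM factors only, and BLAST 2.17.0 were used. Alternatives were other lengths, denominators, scalings, cutoffs, a pseudocount of 0.1, at least 10 counts, and leaving out each mouse. Leaving out shared exonic bases, and a pseudocount of 0.1 for likeness, were chosen after seeing the data. All 10 genes are named. Partners were named as the highest and lowest of their list, at 0 counts, or as nearest in pattern. Further ones, named for their role or their values, were chosen after their values were seen. The genes, pairs and lists were chosen with earlier results of these data known.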

Additional observations from a re-analysis of the deposited data

Results flagged for a closer look

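Of 63 values compared over the 4 mice (the 10 genes, 44 partners, 6 differences and 3 sums), 15 had 1 mouse whose gap to the nearest other, as a share of the whole range, exceeded the 95% limit of Dixon's test for groups of 4. By chance the test passes about 1 in 20 groups, which does not hold for genes with many zeros: 5 of the 63 values are 0 in every mouse and have no range, and 5 of the 15 are genes with 0 in 3 mice, whose gap is 1 by construction. Over all genes with a range, 38.5% were past the limit, and of the 49 genes of the group and its partners with a range, 30.6%. Of genes above 1 TPM in every mouse, 6.14% were past it, and here 4 of 28. Of the group, Fbln1 stood out with 104 TPM in mouse 2 against 26.4 TPM in the next mouse (gap 0.876), and Fbln2 with its 8 counts in mouse 1 against 0 in the others (gap 1).

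Among the partners at higher levels, Lox was highest in mouse 1 at 497 TPM (gap 0.866), Emilin1 in mouse 3 at 104 TPM (gap 0.832), Itgb1 in mouse 2 at 214 TPM (gap 0.871) and Thsd4 in mouse 2 at 7.62 TPM (gap 0.859). The others were at 0.51 TPM or below in 3 of the 4 mice. In mouse 1 these were Mmrn2 (gap 0.994), Elane (gap 1) and Mmp12 (gap 1). In mouse 3 they were Emilin3 (gap 1), Itga5 (gap 0.951) and Tgfb2 (gap 0.979). In mouse 4 they were Fbln7 (gap 0.995), Hmcn1 (gap 0.997) and Itga8 (gap 1). No cause was tested.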

How the results depend on the processing

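All 6 differences kept their direction under 13 alternatives each. That of Fbn1 from Fbn2 lay between 0.52 and 1.59, that of Fbln5 from Efemp2 between -1.65 and -0.44, the latter without a length correction, and that of Efemp2 from Efemp1 between 2.01 and 4.16. No setting could bring a p under 0.125. The number of expressed genes of the group was 7 under 14 of 15 alternatives and 6 when the cutoff of 1 TPM was applied to each mouse. The number of partners, 27, lay between 21 (median above 5 TPM) and 33 (mean above 1 TPM). Scaling by TMM, size factors or upper quartile shifted the median of genes above 1 TPM in every mouse by at most 0.177 in log2. Means moved by more than 1 SD only without a length correction, for 6 genes, in a unit without length. Leaving out each mouse gave a mean of 20.2 to 49.8 TPM for Fbln1 and 77.8 to 132 TPM for Fbln5. Lengths come from another build, so a gene whose exons changed has a TPM off by that ratio. The floors given for Eln, Fbln2 and Mfap5 reflect read depth only. Loss of RNA in making libraries from 100 cells was not measured, so the floors do not bound the level in the cells.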
